A study of Mus musculus with 2 samples.

Results

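The RNA of 9 mouse genes of the XCL1-XCR1 axis and of type 1 conventional dendritic cells (cDC1s) was followed across the cell types of MC38 tumors. The genes were *Xcl1*, *Xcr1*, *Clec9a*, *Flt3*, *Flt3l*, *Batf3*, *Itgae*, *Cd24a* and *Wdfy4*, which are 9 of the 32285 genes in the deposited count matrices, each with 1 row. They were chosen with earlier results from the same data in view, because *Itgae* and *Flt3* had been among the leading genes of a dendritic cell cluster and *Xcr1* among those of a macrophage cluster. All values below are therefore descriptions, and none is a test.

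MC38 is a mouse colon cancer cell line that grows as a tumor when implanted under the skin. Such tumors were grown in wild-type (WT) mice and in mice labelled LMO7 KO, which lack *Lmo7* in the whole animal on the C57BL/6 background and whose implanted MC38 cells carry no knockout. Live cells were sorted, and 1 droplet library (10x Genomics) was made for each genotype. The sources used here do not give the number of mice behind a library. With 1 library per genotype no test between genotypes was possible, and each value describes these 2 libraries.

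cDC1s are a rare kind of dendritic cell that takes up material from dying cells and presents its antigens to CD8 T cells on MHC class I, a route called cross-presentation. XCL1 is a chemokine secreted by NK cells and activated T cells, and its receptor XCR1 is a standard surface marker of cDC1s. FLT3L is the growth factor of dendritic cells and acts through the receptor FLT3. CLEC9A binds actin filaments exposed by dead cells, BATF3 is the transcription factor that cDC1 development requires, and WDFY4 is needed for the cross-presentation of cell-associated antigen. ITGAE, also called CD103, pairs with an integrin beta chain to bind E-cadherin and marks cDC1s of peripheral tissues as well as some tissue T cells, and CD24 is a surface glycoprotein of cDC1s, B cells, neutrophils and many epithelial tumor cells.

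The bases before the start sites of the receptor genes *Xcr1* and *Clec9a*, which were both counted outside cDC1s in these tumors, and of the ligand genes *Xcl1* and *Flt3l* are given here. They are the 250 bases upstream of each start in RefSeq on GRCm38.p6, 5′ to 3′ on the strand of the gene, and capitals mark a match to a searched motif. RefSeq promoter entries were matched for 7 of the 9 genes, and *Itgae* and *Cd24a* were the other 2.
Xcr1, chr9:123862030-123862279, minus strand: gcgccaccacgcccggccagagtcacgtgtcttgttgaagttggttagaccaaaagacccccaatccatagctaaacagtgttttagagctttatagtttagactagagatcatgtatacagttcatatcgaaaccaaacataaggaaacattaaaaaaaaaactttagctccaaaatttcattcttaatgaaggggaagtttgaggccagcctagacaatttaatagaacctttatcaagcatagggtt
Clec9a, chr6:129408612-129408861, plus strand: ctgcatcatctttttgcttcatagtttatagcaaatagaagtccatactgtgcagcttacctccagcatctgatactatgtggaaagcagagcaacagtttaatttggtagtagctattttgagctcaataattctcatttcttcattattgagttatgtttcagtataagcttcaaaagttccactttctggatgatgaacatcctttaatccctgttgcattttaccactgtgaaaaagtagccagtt
Xcl1, chr1:164935523-164935772, minus strand: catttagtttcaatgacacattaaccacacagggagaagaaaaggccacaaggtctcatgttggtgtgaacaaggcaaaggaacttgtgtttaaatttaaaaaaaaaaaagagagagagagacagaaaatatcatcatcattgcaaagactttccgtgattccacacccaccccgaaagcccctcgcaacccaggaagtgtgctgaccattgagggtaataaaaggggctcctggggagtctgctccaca
Flt3l, chr7:45136433-45136682, minus strand: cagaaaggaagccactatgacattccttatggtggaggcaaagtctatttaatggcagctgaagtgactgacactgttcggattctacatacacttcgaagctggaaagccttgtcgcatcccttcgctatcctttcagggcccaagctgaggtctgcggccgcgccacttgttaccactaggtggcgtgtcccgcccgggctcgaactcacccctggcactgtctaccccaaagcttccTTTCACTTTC
Each window of 300 bases, 250 before and 50 after the start, was searched on both strands for 4 motifs. AP-1 (TGANTCA) occurred in 7.81% of all 32851 promoters of that length, the interferon response motif (GAAA, any 2 bases, GAAA) in 3.44%, the PU.1 motif (GAGGAAGT) in 3.20% and the T-box motif (AGGTGTGA) in 1.28%. The search returned 1 match among the 7 genes, an interferon response match in *Flt3l* that begins 10 bases before the start. The windows of *Xcr1* and *Clec9a* held 40.0% and 37.0% G and C, under the lower quartile of all promoters (45.7%), and that of *Batf3* held 75.7%, over the upper quartile (61.7%). Such matches describe the letters of these windows and say nothing of binding.

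The WT library held 16208 droplets with 98582479 UMIs (unique tags, each of which marks 1 captured RNA molecule), and the library labelled KO held 15163 droplets with 80648345 UMIs. After filters on genes, UMIs and mitochondrial share, 13542 and 11860 cells were left, with medians of 4535.5 and 4304.5 UMIs per cell. The libraries shared 279 cell barcodes, 175 of them among the cells kept. *Lmo7* itself had 34 and 29 counts in the host cells of a named class, or 1.33 and 1.15 CPM (counts per 1000000 counts of the class), and the 95% intervals of 0.924 to 1.86 and 0.773 to 1.66 overlapped. A loss of *Lmo7* RNA was thus not detectable in host cells at this depth, so the genotype rests on the label, and the text speaks of the library labelled KO. Cells were clustered without the 9 genes and named from markers that hold none of them.

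A level below is the CPM of the counts summed over a cell class in 1 library, with an exact Poisson 95% interval. A difference between libraries is the log2 ratio of these levels, the library labelled KO over WT, with the exact binomial 95% interval of the split of counts. The intervals cover counting error only, and cells of 1 library vary more than that. A gene was compared where it had at least 20 counts over both libraries, and was called where the levels stood at least 2-fold apart.

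The cDC1-like cluster held 53 cells in the WT library and 41 in the library labelled KO, and 12 of 12 cDC1 markers stood at 5 CPM or more in each. Its leading genes beside the 9 were *Ppt1*, *Cadm1* and *Gpr141b*. These cells were 0.391% and 0.346% of all cells kept, a difference of -0.0457 percentage points (95% Newcombe interval -0.196 to 0.108). Dendritic cells of the 4 named subsets were 1.74% (236 cells) and 1.24% (147 cells), a difference of -0.503 points (-0.801 to -0.204). That difference came down to -0.0904, -0.0821 and -0.00709 points with a lower resolution, a higher resolution or doublets removed, and each of those intervals included 0. The largest subset, with 129 and 63 cells, was led by *Pgf*, *Cwc25* and *Mgl2*, and *Mgl2* was the 1 fixed cDC2 marker among its 10 leading genes. Its cDC2 markers summed to 3878 and 4506 CPM, against 4082 and 4406 CPM in macrophages and 5355 and 6154 CPM in monocytes. These markers did not set it apart, so it is called the *Pgf*-led dendritic cells here (cDC2-like in the plots).

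Of the 9 genes, 7 could be compared in the dendritic cells of all subsets, and 0 of these were called, beside 5.38% of all 6858 genes compared there. The log2 ratios of the 7 ran from -0.10 for *Cd24a* to 0.74 for *Clec9a*, with a median of 0.24 against -0.05 over all genes compared. The make-up of this class differed between the libraries, with cDC1-like cells 53 of 236 and 41 of 147 and *Pgf*-led cells 129 of 236 and 63 of 147, and within cDC1-like cells the ratio of *Clec9a* was 0.39. In macrophages 2 of 7 were called, *Xcr1* and *Clec9a*, both higher in the library labelled KO, beside 2.94% of all 11970 genes compared. In lymphocytes 0 of 3 (*Xcl1*, *Flt3l* and *Itgae*) were called, beside 3.51% of 9033 genes.

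**Figure D1:**
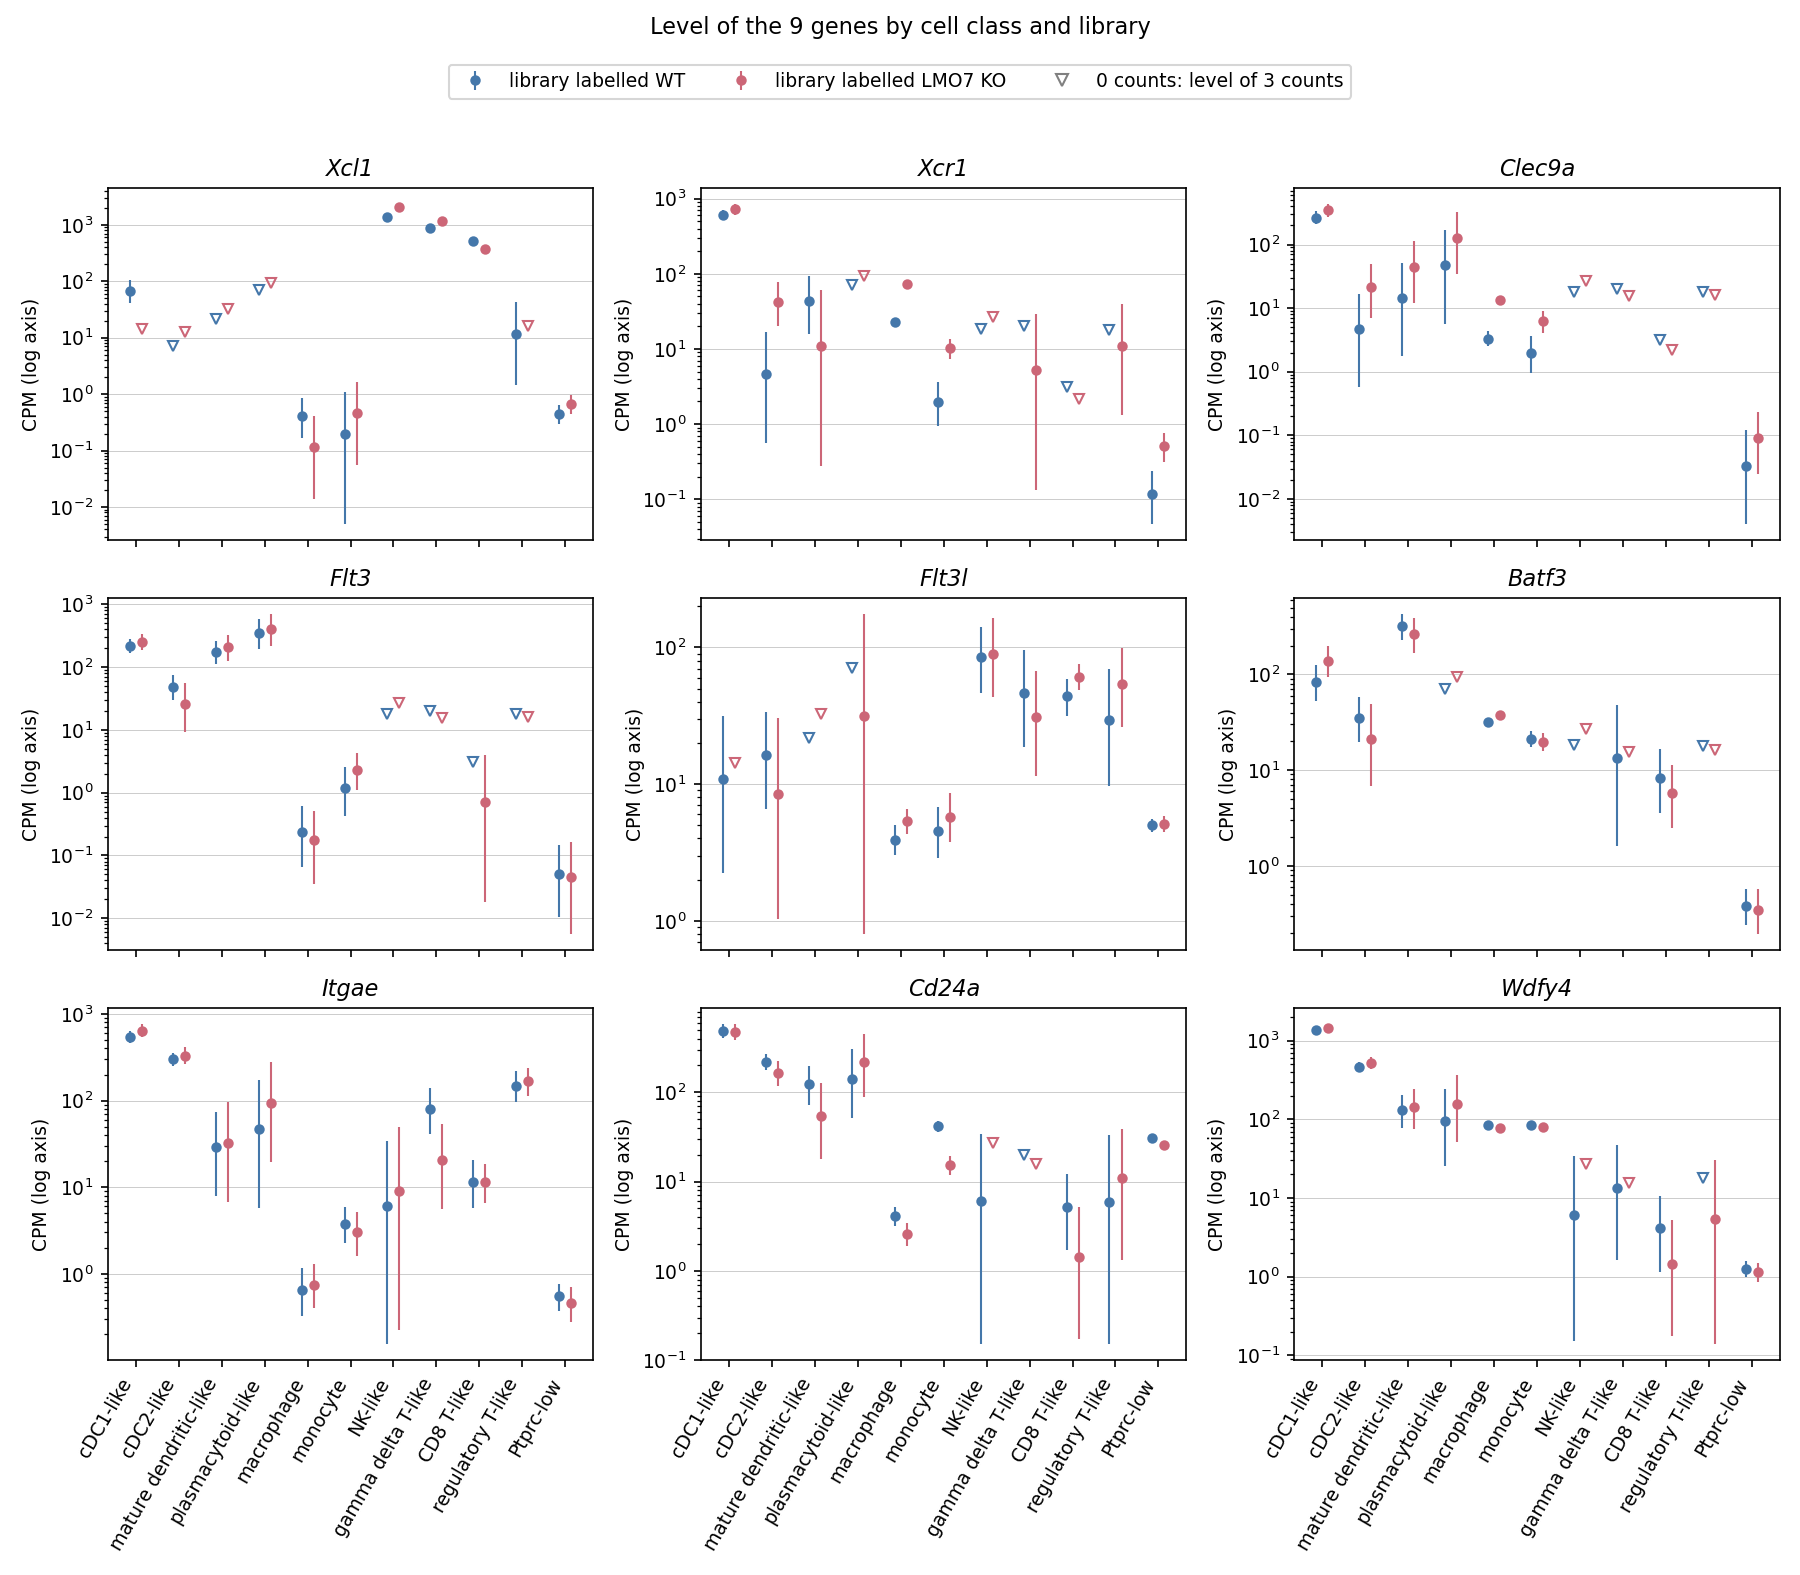
Each panel plots the level of 1 of the 9 genes in CPM on a log axis, by cell class, with 1 point per library and its exact Poisson 95% interval. *Xcr1*, *Clec9a*, *Itgae*, *Cd24a* and *Wdfy4* stood highest in cDC1-like cells of both libraries, *Flt3* in plasmacytoid-like cells, *Batf3* in mature dendritic-like cells, and *Xcl1* and *Flt3l* in NK-like cells.

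*Xcl1* RNA, the ligand, was counted mainly in lymphocytes, which held 79.4% of its 1090 counts in the WT library and 87.3% of its 1119 in the library labelled KO. NK-like cells, led by *Gzma*, *Klrb1b* and *Car2*, had the highest level, with 1368 CPM (1195 to 1558, 226 counts in 76 cells) and 2059 CPM (1801 to 2343, 229 counts in 50 cells). The level was higher in the library labelled KO by 0.59 on the log2 scale (0.32 to 0.86), short of 2-fold. With a stricter filter on cells it was 0.35 (-0.01 to 0.72).

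A T cell cluster led by *Il17a*, *Tnfsf8* and *Penk* came next. Its gamma delta T markers summed to 1193 CPM (7 of 7 at 5 CPM or more) in the WT library but to 150.2 CPM (5 of 7) in the library labelled KO, where NK-like cells had 171 CPM. It is therefore called the *Il17a*-led T cells (gamma delta T-like in the plots), and its cells may differ in kind between the libraries. *Xcl1* stood there at 888 CPM (744 to 1052) and 1160.5 CPM (1013 to 1323), and the log2 ratio was 0.39 (0.07 to 0.71). CD8 T-like cells had 525 CPM (479.9 to 573) and 377 CPM (346 to 411). Their log2 ratio was -0.48 (-0.66 to -0.30) and -0.12 (-0.29 to 0.05) with the stricter filter. The *Xcl1* levels thus ran from NK-like over *Il17a*-led T to CD8 T-like cells in each library, and no neighbouring intervals overlapped. Regulatory T-like cells had 11.9 CPM from 2 counts in the WT library and 0 counts in the other.

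The CD8 T-like cells were 4 clusters that differed in *Xcl1*. The cluster led by *Hspa1a*, *Gm156* and *Tcrg-C2* had 484 CPM (414 to 563) in the WT library and 200.03 CPM (160.2 to 247) in the library labelled KO, with a log2 ratio of -1.28 (-1.67 to -0.90). The cycling cluster led by *Ccna2*, *Pclaf* and *Nusap1* had 674 and 599.7 CPM (log2 ratio -0.17, -0.39 to 0.05). The cluster led by *Ly6c2*, *S1pr1* and *Ifit3* had 206 and 285 CPM (log2 ratio 0.47, -0.30 to 1.24). A cluster of 5 and 42 cells led by *Gzmf*, *Gzme* and *Gzmd* had 0 and 6 counts of *Xcl1*, and its WT interval reached 198 CPM. The lower *Xcl1* level of CD8 T-like cells in the library labelled KO thus stood in the first of these clusters beyond counting error. The make-up differed as well, because the *Gzmf*-led cluster, with few *Xcl1* counts, was 5 of 316 and 42 of 468 CD8 T-like cells. How much of the pooled ratio came from make-up was not tested.

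The counts of *Xcl1* were concentrated in few cells. In CD8 T-like cells the tenth of the cells with the most *Xcl1* held 79.1% of its counts in the WT library and 85.3% in the library labelled KO, and single cells reached 43 and 86 counts. In *Il17a*-led T cells the tenth held 60.4% and 75%, with up to 60 counts in 1 cell, and in NK-like cells 53.1% and 38.9%. Levels of *Xcl1* in these small groups therefore rest on fewer cells than counts, and their intervals are too narrow for cell-to-cell spread.

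With cells thinned to 1500 UMIs each, 56.2% of 48 NK-like cells in the WT library (41.2% to 70.5%, Clopper-Pearson) and 81.8% of 33 in the library labelled KO (64.5% to 93.0%) had a *Xcl1* UMI, with 28 and 17 shallower cells left out. Before thinning the shares were 60.5% and 78.0%, at median depths of 1666 and 2017.5 UMIs. CD8 T-like cells had a *Xcl1* UMI in 26.3% of 247 cells (20.9% to 32.3%) and 19.5% of 353 (15.5% to 24.1%), and in 28.5% and 23.5% before thinning, with 69 and 115 shallower cells left out. Clusters low in *Ptprc*, the CD45 gene of blood cells, served as background and had a *Xcl1* UMI in 0.0350% of 5709 and 0.0703% of 4266 thinned cells, from median depths of 6526 and 6093.5 UMIs. Before thinning that background was 0.332% and 0.352%. The shares in NK-like and CD8 T-like cells lay above it in both libraries, and their intervals overlapped between the libraries.

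cDC1-like cells of the WT library also had 19 *Xcl1* counts, or 68.6 CPM (41.3 to 107), against 0 counts in the library labelled KO. These 19 counts lay in 3 of the 53 cells, and all 3 carried at least 3 UMIs of T cell genes (*Cd3e*, *Cd3g*, *Trac*, *Trbc2* and *Cd8a*). At least 3 such UMIs were found in 8 cDC1-like cells of the WT library and in 1 of the other. Every *Xcl1* UMI of the cDC1-like cells was thus found in a cell that also held T cell RNA.

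*Flt3l*, the ligand of FLT3, was likewise highest in NK-like cells, with 84.7 CPM (46.3 to 142, 14 counts) in the WT library and 89.9 CPM (43.1 to 165, 10 counts) in the library labelled KO. CD8 T-like cells had 43.8 CPM (31.6 to 59.2) and 61.2 CPM (48.9 to 75.7). The intervals of these groups overlapped, so their order could not be told at this depth. Over all lymphocytes the level was 47.1 CPM (36.6 to 59.7) and 59.1 CPM (48.6 to 71.2), with a log2 ratio of 0.33 (-0.12 to 0.78).

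*Flt3l* counts were not restricted to lymphocytes. An annotated protein-coding gene, *Gm45713*, overlaps *Flt3l* by 6444 bases on the same strand. It has no row in the matrices, so its RNA was not counted apart from *Flt3l*. *Ptprc*-low cells had 5.00 CPM (4.45 to 5.60) and 5.09 CPM (4.44 to 5.80), and because they were the most numerous they held 55.8% and 42.6% of its counts. Macrophages had 3.92 CPM (3.03 to 4.98) and 5.37 CPM (4.33 to 6.57), with a log2 ratio of 0.45 (-0.02 to 0.93). Lymphocytes held 12.6% and 21.3% of the counts, at a level above those of *Ptprc*-low cells and macrophages in each library.

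**Figure D2:**
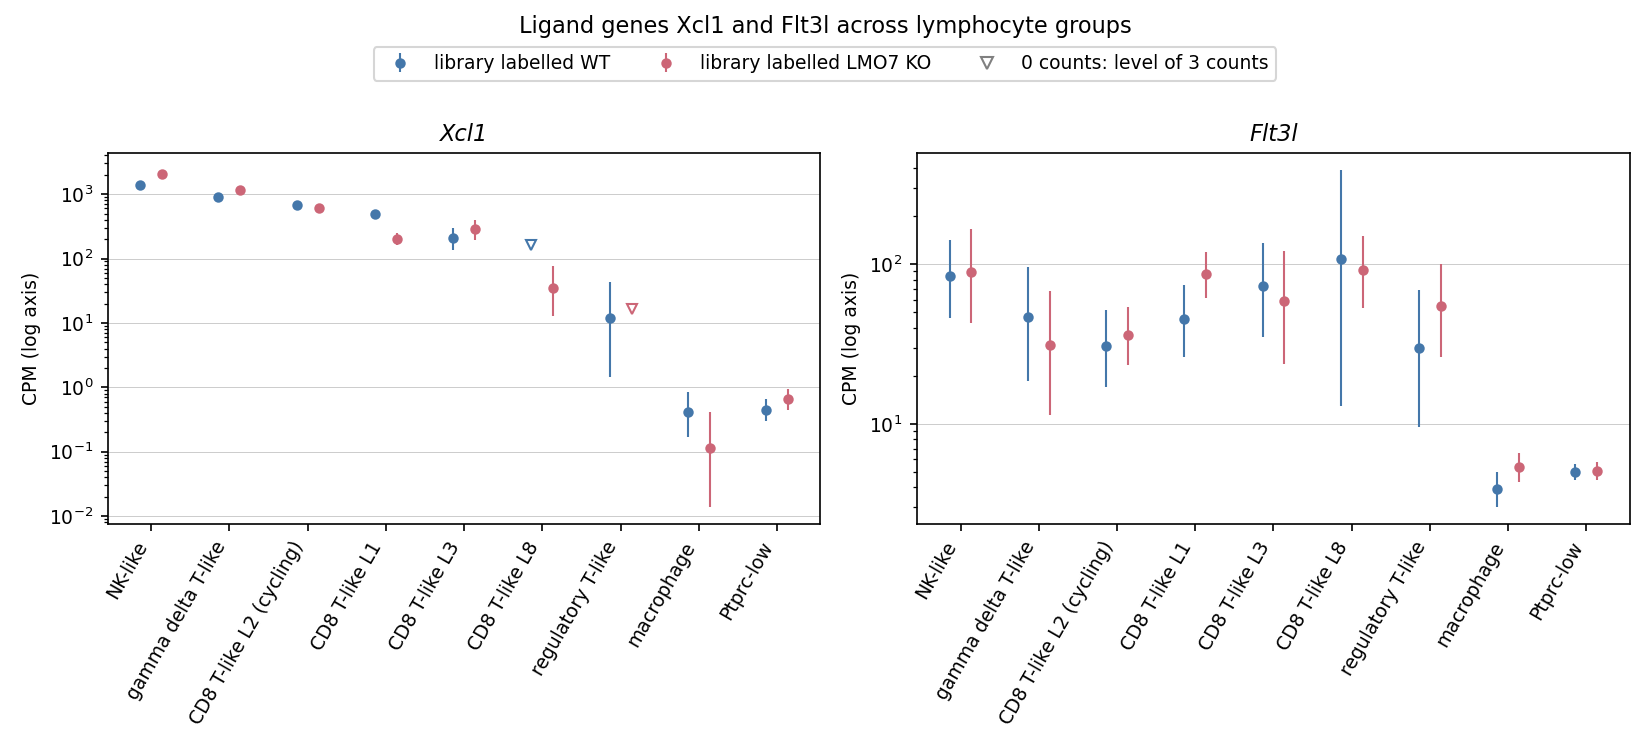
The levels of *Xcl1* and *Flt3l* in CPM on a log axis are plotted for the lymphocyte groups and clusters, with 1 point per library and exact Poisson 95% intervals. *Xcl1* ran from 2059 CPM in NK-like cells of the library labelled KO to 0 in its regulatory T-like cells, while the intervals of *Flt3l* overlapped among most groups.

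*Xcr1* RNA, the receptor of XCL1, had its highest level in cDC1-like cells, with 610.4 CPM (522 to 709.7, 169 counts) in the WT library and 723 CPM (612 to 848, 151 counts) in the library labelled KO. The log2 ratio was 0.24 (-0.08 to 0.57), and by the mean over single cells it was -0.17. A *Xcr1* UMI was found in 83.0% of 53 and 78.0% of 41 of these cells, and in 49.0% and 57.5% after thinning, with 4 and 1 cells left out. No difference in *Xcr1* was thus detectable in cDC1-like cells. Mature dendritic-like cells, led by *Ccl5*, *Fscn1* and *Ccl22*, had 43.3 and 10.9 CPM, from 6 counts and 1 count. *Pgf*-led dendritic cells had 4.68 CPM (0.567 to 16.9) from 2 counts and 42.4 CPM (20.3 to 78.0) from 10 counts, too few for a ratio. Plasmacytoid-like cells, led by *Siglech*, *Ccr9* and *Klk1*, had 0 counts in each.

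Most *Xcr1* RNA in the tumors was nevertheless counted in macrophages. They held 58.3% of its 654 counts in the WT library and 77.7% of its 1636 in the library labelled KO, while cDC1-like cells held 25.8% and 9.23%. Of 343 and 850 cells with a *Xcr1* UMI, 236 (68.8%) and 673 (79.2%) were macrophages, and 44 and 32 were cDC1-like. With a more lenient filter on cells macrophages held 33.2% and 24.2%, and unnamed clusters held 41.1% and 64.6% in place of 12.1% and 7.95%.

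The *Xcr1* level in macrophages was 22.6 CPM (20.4 to 24.99) in 2899 cells of the WT library and 73.3 CPM (69.4 to 77.5) in 3491 cells of the library labelled KO, with a log2 ratio of 1.70 (1.53 to 1.87). It was 1.68 without barcodes found in both libraries and 1.03 with the lenient filter. After thinning, 2.73% of 2751 macrophages (2.15% to 3.41%) and 9.25% of 3180 (8.26% to 10.3%) had a *Xcr1* UMI, with 148 and 311 shallower cells left out. Before thinning the shares were 8.14% and 19.3%, at median depths of 5313 and 4436 UMIs. Macrophages with at least 3 *Xcr1* UMIs numbered 37 and 142, with up to 7 and 9 in a cell, and 27 and 20 cDC1-like cells reached 3. *Xcr1* in macrophages was thus higher in the library labelled KO by level, by share and by the number of UMIs per cell.

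Monocytes and *Ptprc*-low cells were also higher in the library labelled KO, at lower levels. *Xcr1* had 1.97 CPM (0.943 to 3.61) and 10.2 CPM (7.41 to 13.7) in monocytes, with a log2 ratio of 2.37 (1.36 to 3.53). In *Ptprc*-low cells it had 0.116 CPM (7 counts) and 0.504 CPM (22 counts), with a log2 ratio of 2.12 (0.84 to 3.59). After thinning 0.0350% and 0.164% of *Ptprc*-low cells had a *Xcr1* UMI (0.111% and 0.393% before), so the background of the library labelled KO was also higher. The share in macrophages stood above this background in each library.

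The macrophages formed 10 clusters of that name, and 8 of them had enough *Xcr1* counts for a ratio. All 8 were higher in the library labelled KO, with log2 ratios from 0.62 to 2.07 and intervals above 0. The cluster led by *Cd300e*, *Fcrl5* and *Klra17* (M6) had the highest level in the library labelled KO, with 66.1 CPM (50.5 to 84.9) in 176 WT cells and 214 CPM (189 to 241) in 289 cells of the other. *Cd300e* and *Fcrl5* encode surface receptors of the myeloid CD300 family and the Fc receptor-like family.

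The cluster led, beside *Xcr1* itself, by *Fcgr4*, *Klra17* and *Pecam1* (M4) had 73.4 CPM (51.7 to 101) and 127 CPM (114 to 141), with a log2 ratio of 0.80 (0.30 to 1.33). It held 99 cells of the WT library and 604 of the library labelled KO, or 3.41% and 17.3% of macrophages, so it may be that library rather than a type. Without it the log2 ratio over all other macrophages was 1.58. With every cluster weighted equally the means were 25.9 and 65.1 CPM, with a log2 ratio of 1.33. The share of cells in a *Xcr1*-rich cluster and the level within clusters thus both stood higher in the library labelled KO.

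The other clusters spanned a wide range. Cycling macrophages led by *Pclaf*, *Rrm2* and *Top2a* (M1) had 22.0 CPM (18.2 to 26.3) and 88.4 CPM (79.4 to 98.1), with a log2 ratio of 2.01 (1.70 to 2.32). The interferon cluster led by *Ifit3*, *Rsad2* and *Ifit2* (M7) had 30.2 and 55.0 CPM, and the cluster led by *H2-M2*, *Procr* and *Ccl5* (M3) had 18.6 and 28.5 CPM, the smallest ratio of the 8. The lowest levels among clusters with a ratio stood in the cluster led by *Mmp12*, *Gpnmb* and *Hspa1b* (M5), with 2.46 CPM from 3 counts and 10.3 CPM from 17 counts. The cluster led by *Retnla*, *Saa3* and *Folr2* (M10) had 2 and 0 counts.

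**Figure D3:**
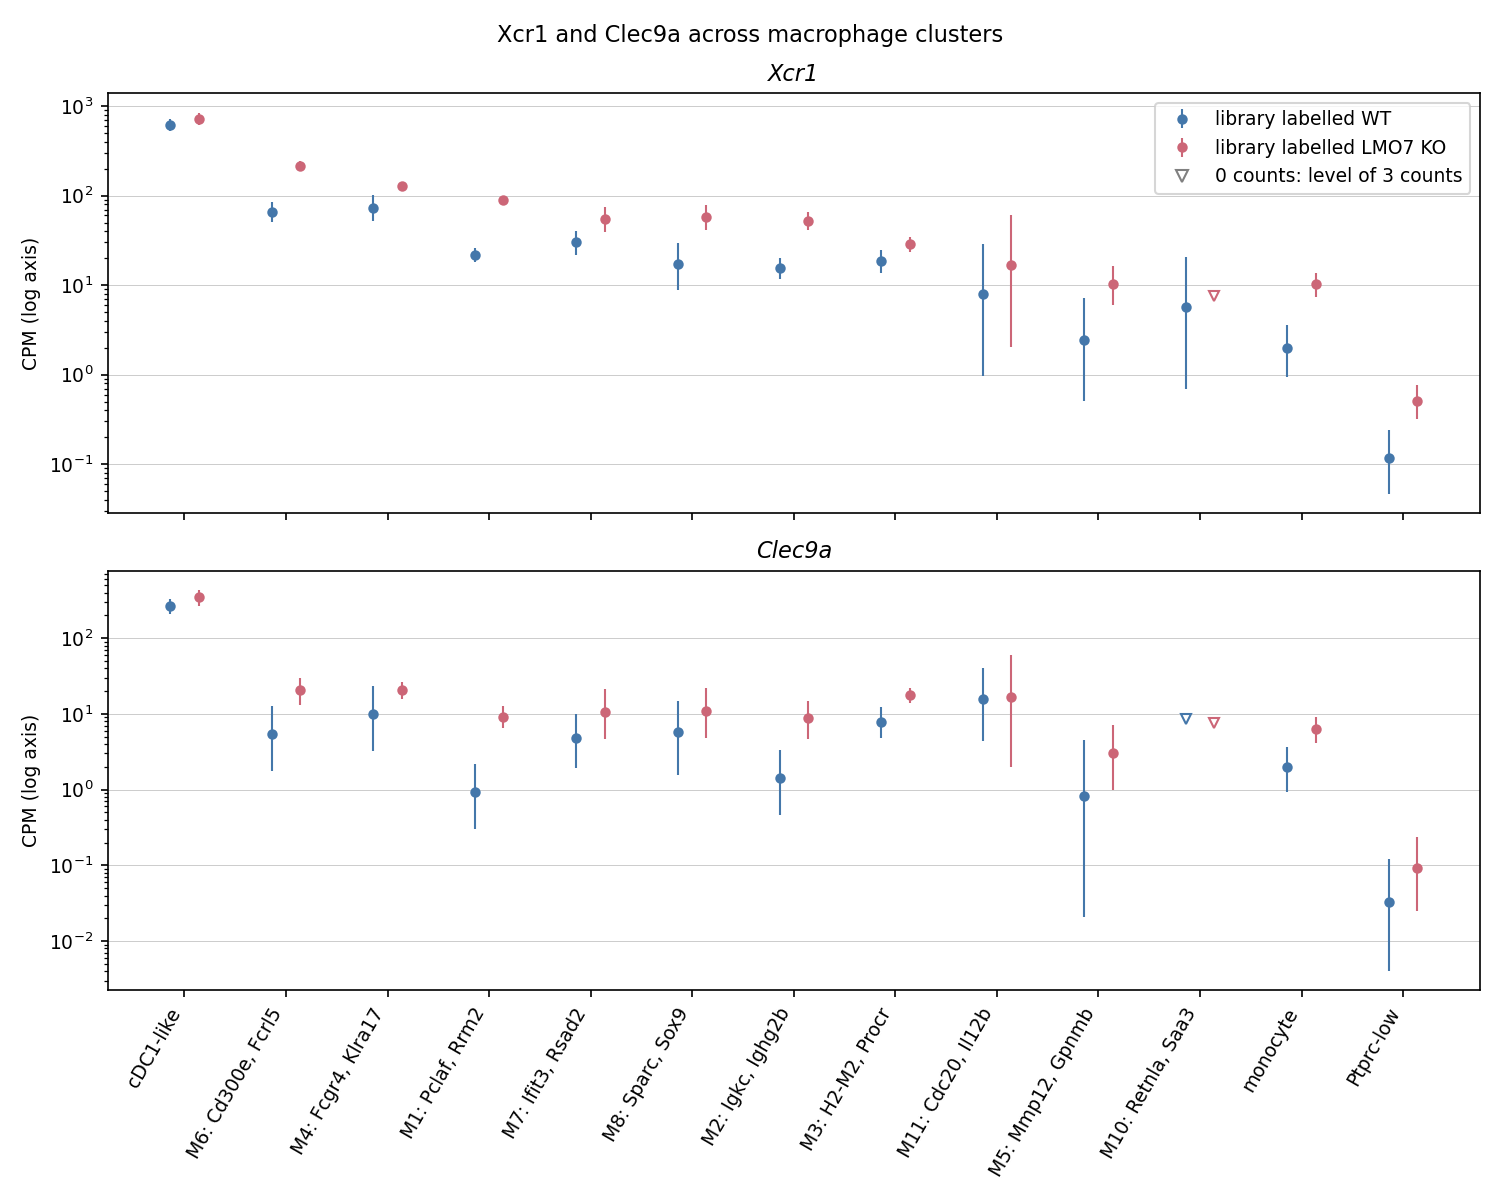
The levels of *Xcr1* and *Clec9a* in CPM on a log axis are plotted for the macrophage clusters, with 1 point per library and exact Poisson 95% intervals. *Xcr1* stood higher in the library labelled KO in the 8 clusters with a ratio, with its highest level, 214 CPM, in the cluster led by *Cd300e*, *Fcrl5* and *Klra17*.

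*Clec9a*, the dead-cell receptor, had 264 CPM (207 to 332, 73 counts) in cDC1-like cells of the WT library and 345 CPM (269.6 to 434, 72 counts) in those of the library labelled KO, with a log2 ratio of 0.39 (-0.10 to 0.88). In macrophages it had 3.32 CPM (2.51 to 4.31, 56 counts) and 13.2 CPM (11.6 to 15.04, 229 counts), with a log2 ratio of 1.99 (1.56 to 2.44). The intervals of the libraries overlapped in cDC1-like cells and did not in macrophages. Plasmacytoid-like cells had 47.2 CPM (5.72 to 170.6) from 2 counts and 126 CPM (34.3 to 322) from 4 counts, and the latter interval overlapped that of the cDC1-like cells. *Clec9a* was higher in the library labelled KO in 9 of 9 macrophage clusters with a ratio, and 4 of the intervals lay above 0.

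After thinning, a *Clec9a* UMI was found in 0.763% of macrophages (0.473% to 1.16%) and 1.76% (1.33% to 2.28%), against 1.62% and 5.61% before. In *Ptprc*-low cells it was found in 0 of 5709 cells and in 0.0234% of 4266, against 0.0317% and 0.0827% before thinning. Monocytes had 1.97 CPM (0.943 to 3.61) and 6.26 CPM (4.12 to 9.10). Macrophages held 33.7% and 56.5% of all *Clec9a* counts, and cDC1-like cells 44.0% and 17.8%. As for *Xcr1*, a larger share of the *Clec9a* counts thus lay in macrophages in the library labelled KO. An annotated gene, *Clec1b*, overlaps *Clec9a* by 474 bases on the same strand and had 52 counts in all droplets, against 584 of *Clec9a*.

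The ratio of *Xcr1* to *Clec9a* counts differed between the classes. Over both libraries it was 2.21 (1.81 to 2.70) in cDC1-like cells and 5.80 (5.11 to 6.60) in macrophages, with 2.32 and 6.80 in the WT library and 2.097 and 5.55 in the library labelled KO. Against *Flt3* the ratio was 2.82 (2.09 to 3.85) and 2.85 (2.07 to 3.97) in the cDC1-like cells of the WT library and the library labelled KO. In macrophages it was 95.3 (36.9 to 351) and 424 (145 to 2057), from 4 and 3 *Flt3* counts. Against *Itgae* it was 1.13 in the cDC1-like cells of each library, and 34.6 (19.1 to 70.0) and 97.8 (57.0 to 184) in macrophages. In *Ptprc*-low cells, the background class, the ratio of *Xcr1* to *Clec9a* was 4.83 (1.97 to 14.2), from 29 and 6 counts.

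Macrophages with and without a *Xcr1* UMI were compared for other UMIs after thinning. Those with *Xcr1* were 75 in the WT library and 294 in the library labelled KO, and those without were 2676 and 2886, so values are given by library. Among the 369 macrophages with *Xcr1*, 0 had a UMI of *Flt3*, *Itgae* or *Cd24a* at this depth. A count of 0 of 369 allows a share of cells with a UMI of up to 0.813% by a floor of 3 counts, and 0.995% by the Clopper-Pearson bound. In the 5562 macrophages without *Xcr1* the shares were 0.0360% for *Flt3*, 0.0719% for *Itgae* and 0.449% for *Cd24a*, all under both limits. The counts of 0 thus did not set macrophages with *Xcr1* apart from those without. Among 47 cDC1-like cells with *Xcr1*, from both libraries, the shares were 38.3% for *Flt3*, 70.2% for *Itgae* and 42.6% for *Cd24a*.

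*Clec9a* was found in 2.67% (0.325% to 9.30%) of the WT macrophages with *Xcr1* and 0.710% (0.428% to 1.11%) of those without. In the library labelled KO the shares were 3.40% (1.64% to 6.17%) and 1.59% (1.17% to 2.12%). The share was higher with *Xcr1* in each library, but the intervals overlapped there. Over both libraries it was 3.25% (1.69% to 5.61%) with *Xcr1* and 1.17% (0.903% to 1.49%) without. Most of the pooled cells with *Xcr1* were of the library labelled KO, so the pooled values mix *Xcr1* with library. A difference in *Clec9a* between these macrophages was thus neither settled nor excluded. *Clec9a* was found in 46.8% (32.1% to 61.9%) of cDC1-like cells with *Xcr1*. *Wdfy4* and *Batf3* also had overlapping intervals between macrophages with and without *Xcr1* in each library.

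*C1qa*, a complement gene of tissue macrophages, was among the markers that named the macrophages, so its presence in them was set in advance. It was found in 98.7% and 91.8% of WT macrophages with and without *Xcr1*, and in 94.9% and 93.1% in the library labelled KO. The intervals overlapped in each library. In the cDC1-like cells with *Xcr1* it was found in 4.26%. *Fcgr4*, an activating Fc receptor, was found in 61.3% (49.4% to 72.4%) of WT macrophages with *Xcr1* and 39.0% (37.2% to 40.9%) of those without, and in 81.3% (76.4% to 85.6%) and 63.4% (61.6% to 65.2%) in the library labelled KO. *Cd300e* was found in 13.3% (6.58% to 23.2%) and 3.06% (2.44% to 3.79%) in the WT library, and in 20.1% (15.6% to 25.1%) and 5.72% (4.90% to 6.63%) in the other. Both genes thus stood higher in the macrophages with *Xcr1* within each library, beyond counting error. *Fcgr4* was a leading gene of M4, and *Cd300e* and *Fcrl5* of M6, and *Xcr1* was itself among the leading genes of both clusters. These genes were thus picked from the same data, and their higher shares beside *Xcr1* are a description only.

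*Fcrl5* was found in 4.00% (0.833% to 11.2%) and 1.20% (0.819% to 1.68%) of WT macrophages with and without *Xcr1*, with overlapping intervals. In the library labelled KO it was found in 8.16% (5.30% to 11.9%) and 1.94% (1.47% to 2.51%). *Cadm1*, an adhesion gene used as a cDC1 marker, was found in 62.7% (50.7% to 73.6%) of WT macrophages with *Xcr1* and 45.2% (43.3% to 47.1%) of those without. In the library labelled KO the shares were 65.0% (59.2% to 70.4%) and 49.5% (47.7% to 51.4%). *Cadm1* thus stood higher in the macrophages with *Xcr1* within each library, beyond counting error. It was found in 57.4% of the cDC1-like cells with *Xcr1*, and so did not separate them from macrophages with *Xcr1* here. Other cDC1 genes did. Over both libraries *Naaa* was found in 21.1% of macrophages with *Xcr1*, 17.2% of those without and 78.7% of cDC1-like cells with *Xcr1*. *Gcsam*, *Snx22* and *Zbtb46* were found in 0 of 369 macrophages with *Xcr1*. In cDC1-like cells with *Xcr1* they were found in 19.1%, 6.38% and 6.38%.

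The whole list of 12 cDC1 markers was 7 of 12 at 5 CPM or more in macrophages, and *Gcsam* and *Clnk* were at 0 in the macrophages of both libraries. Its levels summed to 1412 and 1653 CPM in macrophages. The sums were 5747 and 6696 CPM in cDC1-like cells, which were named by this list, so that their high sum was set in advance. On the same list NK-like cells had 1924 and 1546 CPM, and mature dendritic-like cells 2651 and 3073 CPM. Of the 1193 cells of any class with a *Xcr1* UMI, 104 (8.72%) carried a UMI of *Flt3* or *Itgae*. A UMI of a defining lymphocyte or dendritic gene outside the 9 (*Cd3e*, *Cd3g*, *Trac*, *Ncr1*, *Zbtb46*, *Gcsam* or *Cd209a*) was found in 55 of 2899 and 61 of 3491 macrophages. Without such cells 2 of the 9 genes were called in macrophages, with no share over all genes beside it. *Cd209a* had 0 counts in cDC1-like cells, and *Zbtb46* and *Gcsam* were found in 3.37% and 12.4% of thinned ones. This filter was thus a weak screen for cDC1 RNA, and that source was not tested. With *C1qa*, *C1qb* and *C1qc* for macrophages, UMIs of another class were found in 95 of 236 and 46 of 147 dendritic cells. In lymphocytes they were found in 157 of 521 and 169 of 671. Of the 53 and 41 cDC1-like cells, 30 and 26 held none. A UMI of these 3 C1q genes was found in 63.3% and 64.6% of all cells kept. Doublet calling marked 3 and 4 of the macrophages and 0 of the cDC1-like cells.

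**Figure D4:**
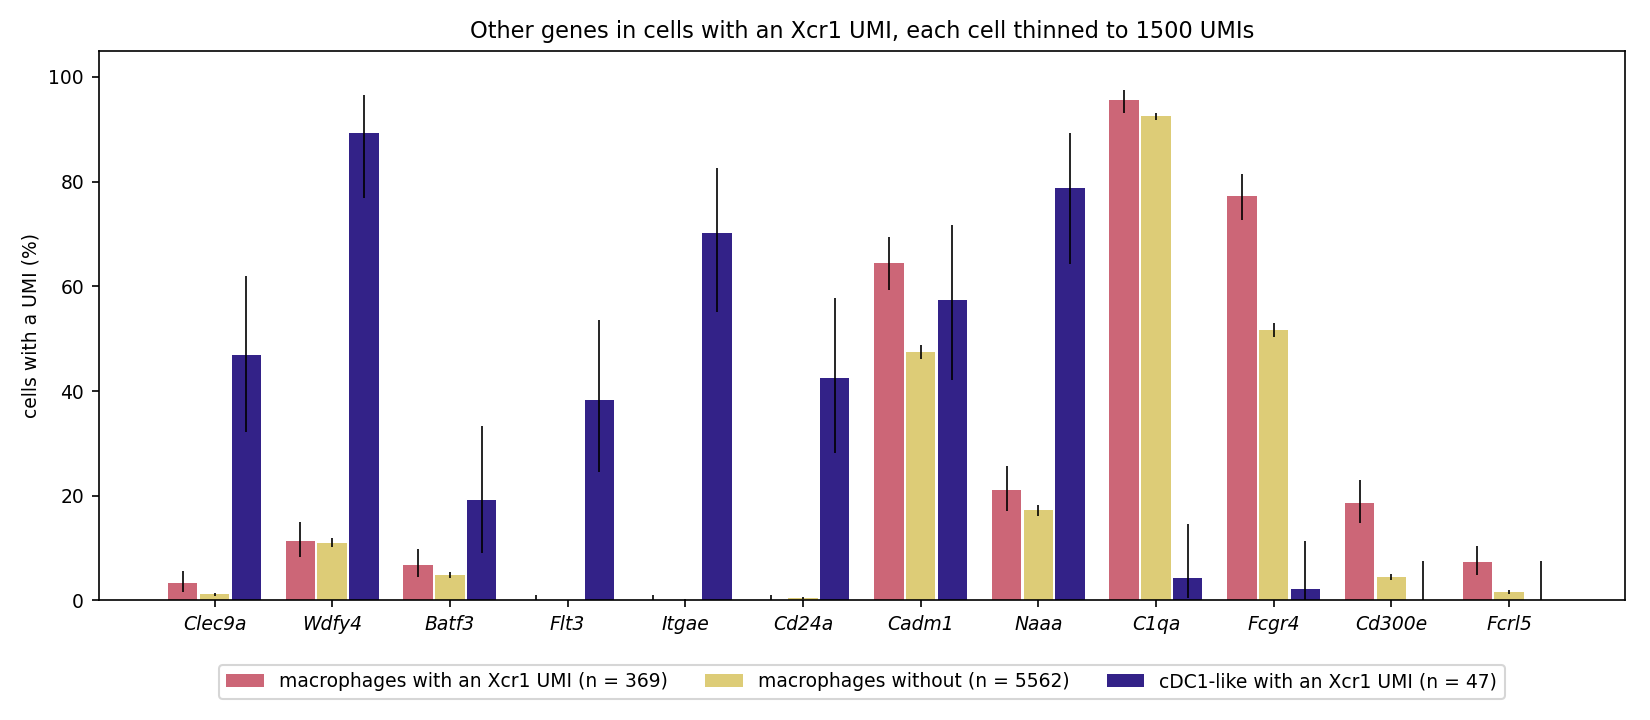
Bars give the share of thinned cells with a UMI of each gene among macrophages with a *Xcr1* UMI, macrophages without one and cDC1-like cells with one, over both libraries, with Clopper-Pearson 95% intervals. *Flt3*, *Itgae* and *Cd24a* were at 0 of 369 in the macrophages with *Xcr1* and at 0.449% or less in those without. *Fcgr4* was found in 77.2% of the 369 cells, of which 294 were of the library labelled KO.

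*Flt3*, the receptor of FLT3L, had its highest levels in dendritic cells. Plasmacytoid-like cells had 354 CPM (198 to 584) in the WT library and 409 CPM (218 to 699) in the library labelled KO. cDC1-like cells had 217 CPM (165 to 279) and 254 CPM (190.0 to 332), and mature dendritic-like cells had 173 CPM (111 to 258) and 208 CPM (125 to 324). The intervals of these 3 subsets overlapped in each library. *Pgf*-led dendritic cells were lower, with 49.2 CPM (30.4 to 75.2) and 25.4 CPM (9.33 to 55.4).

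Macrophages had 4 and 3 counts of *Flt3*, or 0.237 and 0.173 CPM, and lymphocytes had 0 counts and 1 count. The 4 dendritic subsets held 74.5% of the *Flt3* counts of the WT library and 68.9% of the other, unnamed clusters held 17.4% and 18.9%, and monocytes held 3.73% and 7.58%. In cDC1-like cells the log2 ratio was 0.23 (-0.33 to 0.78). Unlike *Xcr1* and *Clec9a*, *Flt3* was thus at or near 0 in the macrophages of each library.

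*Batf3*, the transcription factor, stood highest in mature dendritic-like cells, with 318 CPM (231 to 427) in the WT library and 262 CPM (168 to 390.5) in the library labelled KO. cDC1-like cells had 83.1 CPM (52.7 to 125, 23 counts) and 139 CPM (93.0 to 199.3, 29 counts), with a log2 ratio of 0.74 (-0.10 to 1.60). In the library labelled KO the intervals of these subsets overlapped, while in the WT library they did not. Plasmacytoid-like cells had 0 counts.

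Macrophages had 32.1 CPM (29.4 to 34.9) and 38.0 CPM (35.1 to 41.0) of *Batf3*, with a log2 ratio of 0.24 (0.08 to 0.41), beside a median of -0.11 over all genes compared there. Because they were numerous, they held 62.5% and 70.0% of its counts. The highest macrophage level was in the cluster led by *Cd300e*, *Fcrl5* and *Klra17*, with 70.4 CPM (54.3 to 89.7) and 88.9 CPM (73.0 to 107). *Batf3* RNA was thus shared by dendritic cells, macrophages and monocytes (21.2 and 19.7 CPM), and in macrophages it differed little between the libraries.

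*Wdfy4*, the cross-presentation gene, had 1362 CPM (1228 to 1506) in cDC1-like cells of the WT library and 1445 CPM (1287 to 1618) in those of the library labelled KO, with a log2 ratio of 0.09 (-0.14 to 0.31). *Pgf*-led dendritic cells had 468 and 526 CPM, and mature dendritic-like cells had 130.0 and 142 CPM. Macrophages had 85.8 CPM (81.4 to 90.3) and 78.0 CPM (73.8 to 82.2), with a log2 ratio of -0.14 (-0.25 to -0.03), close to the median of -0.11 over all genes compared. *Wdfy4* therefore showed neither the near absence of *Flt3* from macrophages nor the difference in macrophages seen for *Xcr1*. Macrophages held 46.9% and 51.6% of its counts.

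*Itgae* had 542 CPM (459 to 636) in cDC1-like cells of the WT library and 641 CPM (537 to 759.6) in those of the library labelled KO, with a log2 ratio of 0.24 (-0.10 to 0.59). *Pgf*-led dendritic cells had 302 CPM (252 to 359) and 331 CPM (261 to 413), below the cDC1-like intervals in each library. Regulatory T-like cells, led by *Foxp3*, *Lrrc32* and *Klrg1*, had 148 CPM (95.9 to 219) and 168 CPM (114 to 239). By level *Itgae* thus ran from cDC1-like over *Pgf*-led dendritic cells to regulatory T-like cells in each library. The interval of the regulatory T-like cells overlapped that of the class below them. By counts, the 4 dendritic subsets held 56.0% and 55.2%, and the rest lay outside these subsets. *Il17a*-led T cells had 79.5 CPM (12 counts) and 20.7 CPM (4 counts), and macrophages had 0.653 and 0.750 CPM. *Haspin* lies within *Itgae* on the opposite strand with 1261 counts in all droplets, and the sources used here do not state whether counting used the strand.

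*Cd24a* had 488 CPM (409 to 577) in cDC1-like cells of the WT library and 474 CPM (385 to 577) in those of the library labelled KO, with a log2 ratio of -0.04 (-0.43 to 0.34). Most of its counts were outside dendritic cells, with 67.8% and 70.5% in *Ptprc*-low cells at 30.6 CPM (29.3 to 32.1) and 25.4 CPM (23.9 to 26.9). Monocytes had 41.7 CPM (36.2 to 47.7, 212 counts) and 15.3 CPM (11.8 to 19.5, 66 counts), with a log2 ratio of -1.45 (-1.87 to -1.04). *Cd24a* was thus lower in the monocytes of the library labelled KO, the opposite direction to *Xcr1* in the same cells. In macrophages it had 4.09 and 2.60 CPM (log2 ratio -0.66, -1.23 to -0.09).

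**Figure D5:**
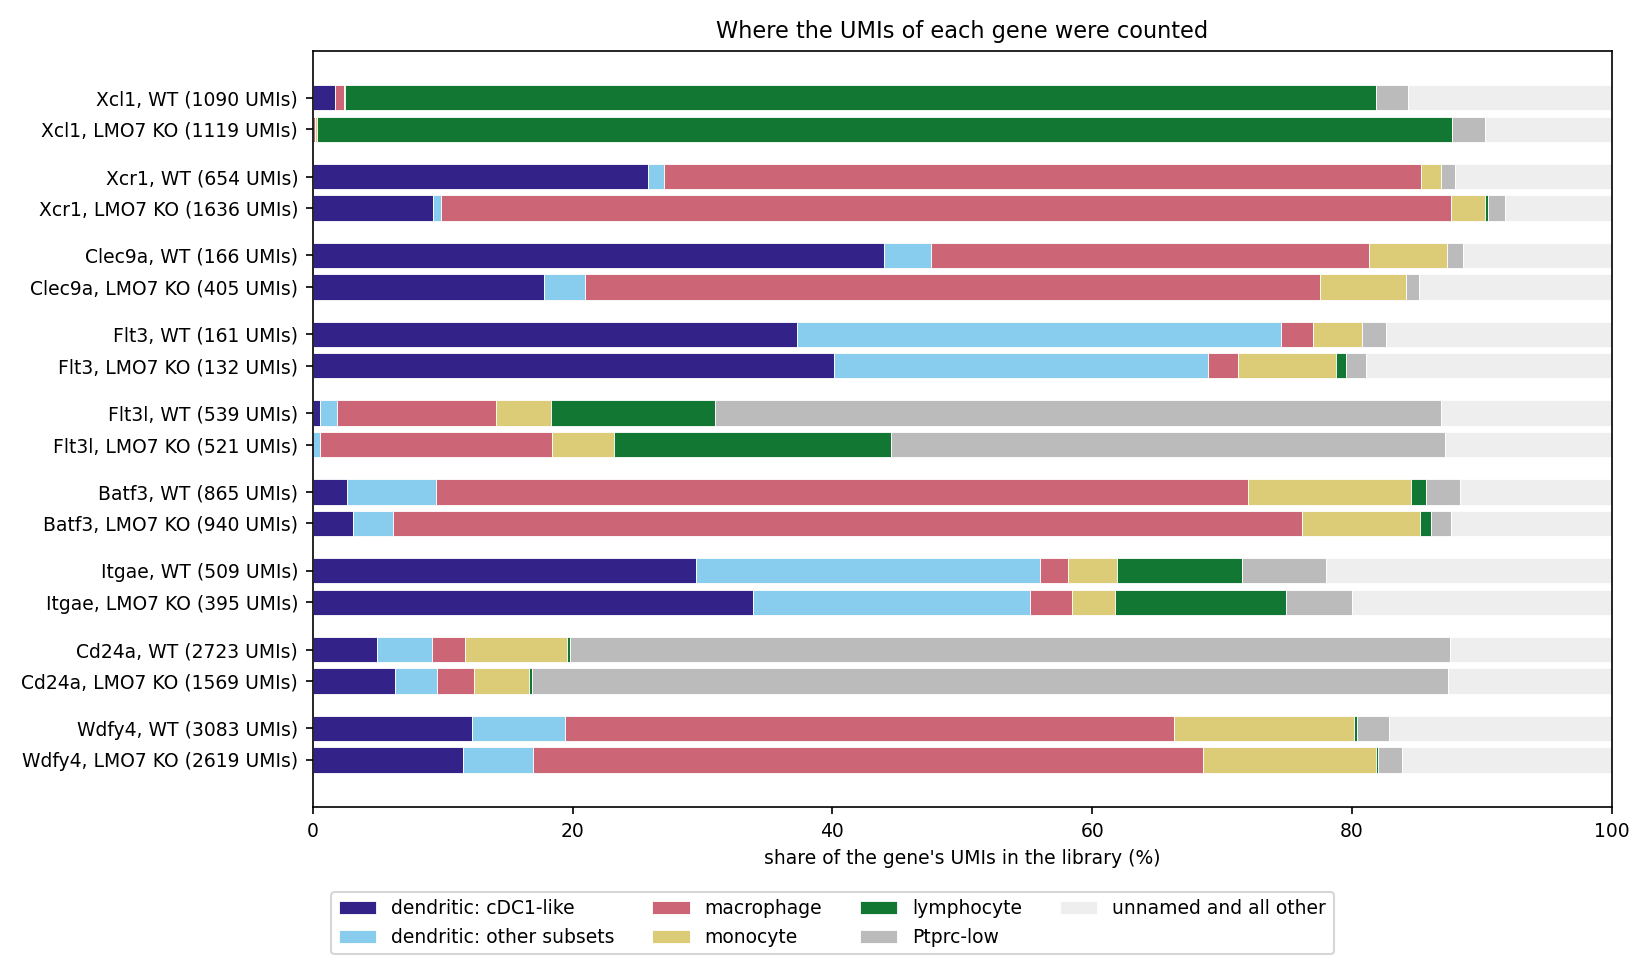
Stacked bars give, for each of the 9 genes and each library, the share of its counts found in each cell class, in percent. *Flt3* and *Itgae* counts lay mainly in dendritic cells and *Xcl1* counts in lymphocytes, while macrophages held 58.3% and 77.7% of the *Xcr1* counts.

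The other genes of the cDC1 programme, a list of 18, were described beside the 9. In cDC1-like cells 14 of them could be compared and 0 were called in either direction, with a median log2 ratio of 0.27 against -0.04 over all genes compared there, of which 8.09% were called. The most abundant were *Irf8*, the transcription factor of the lineage, with 1633 and 1646 CPM, *Naaa*, a lysosomal amidase, with 1279 and 1699 CPM, and *Ppt1*, a lysosomal thioesterase, with 1098 and 1369 CPM. In macrophages 0 of 14 were called higher and 1 lower, beside 2.94% of all genes called there, and the median was 0.22 against -0.11 over all genes. The 1 lower gene was *Zbtb46*, a transcription factor of conventional dendritic cells, with 18 and 9 counts and a log2 ratio of -1.04 (-2.38 to 0.19), named after its values were seen.

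Among 12 chemokines and growth factors that lymphocytes make beside *Xcl1*, 10 could be compared in lymphocytes and 0 were called, beside 3.51% of all genes compared there, with a median log2 ratio of -0.01 against -0.05. *Ccl5* had 1136 and 861 CPM (log2 ratio -0.40, -0.50 to -0.30), *Ltb* 195 and 163 CPM, and *Ccl4* 121 and 193 CPM (log2 ratio 0.68, 0.41 to 0.95). *Xcl1* itself had 599 CPM (560.1 to 641) and 520.3 CPM (488 to 554) over all lymphocytes, with a log2 ratio of -0.20 (-0.34 to -0.07). This pooled ratio joins subsets that differed in direction, above 0 in NK-like and *Il17a*-led T cells and below 0 in CD8 T-like cells. The make-up also differed, with NK-like cells 76 of 521 and 50 of 671 lymphocytes. In macrophages 1 of the 7 genes compared was called, beside 2.94% of all genes, and it was *Ccl5*, with 149 CPM in the WT library and 542 CPM in the library labelled KO (log2 ratio 1.86, 1.79 to 1.92).

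Among 8 dendritic growth factors and receptors beside *Flt3l* and *Flt3*, 5 could be compared in dendritic cells and 0 were called, beside 5.38% of all genes, with a median of 0.08 against -0.05. *Csf2rb* and *Csf2ra*, the chains of the GM-CSF receptor, had 1605 and 1375 CPM and 666 and 704 CPM, and *Kit* had 118 and 137 CPM. Among 12 genes of dendritic cell maturation and T cell help, 10 could be compared in dendritic cells and 0 were called, beside the same 5.38%, with a median of 0.22. In lymphocytes 1 of 7 genes of the growth factor list (*Csf1r*, 15.9 and 4.79 CPM), 1 of 6 of the maturation list (*Cxcl10*, 76.9 and 32.5 CPM) and 1 of 12 of the cDC1 programme (*Clnk*, 13.9 and 2.66 CPM) were called lower, beside 3.51% of all genes, and these genes are named after their values were seen. *Cd83* had 816 and 741 CPM, *Ccr7*, which guides mature cells to lymph nodes, 692 and 709 CPM, and *Ccl22* 458 and 529.8 CPM.

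The genes whose pattern was most like each of the 9 were found by Pearson's r of log2(CPM + 10) over 25 profiles, each the sum of 1 cell class in 1 library, among 13315 genes. The profiles share libraries and differ in depth, so r is a description only. For *Xcr1* these were *Clec9a* (0.935), *Dyrk4* (0.908), *Slc9a7* (0.878), *Snx22* (0.857) and *Fcrla* (0.856), and its r with *Flt3* was 0.74. For *Xcl1* they were *Cd160* (0.975), *Klre1* (0.963), *Nrgn* (0.9504), *Qrfp* (0.948) and *Gm29243* (0.943), of which *Cd160* and *Klre1* encode receptors of NK cells, and its r with *Flt3l* was 0.80. *Clec9a* stood closest to *Mycl* and *Ttc39a* (0.938 each), *Flt3* to *Gm9530* (0.951) and *Cldn1* (0.939), and *Flt3l* to *Gm19585* (0.927) and *Skap1* (0.923). *Batf3* stood closest to *Pkib* (0.930) and *Ncoa7* (0.921), *Itgae* to *Btla* (0.847) and *F2rl2* (0.842), *Cd24a* to *Plet1* (0.923) and *Tnni2* (0.890), and *Wdfy4* to *Rnase6* (0.960).

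In GRCm38 *Xcr1* lies at chr9:123852315-123862029 and *Xcl1* at chr1:164931644-164935527, both on the minus strand, *Clec9a* at chr6:129408862-129424763 on the plus strand and *Flt3* at chr5:147330741-147400489 on the minus strand. *Flt3l* lies at chr7:45129788-45136432 on the minus strand, *Batf3* at chr1:191097847-191108945 and *Itgae* at chr11:73090583-73147446, both on the plus strand, *Cd24a* at chr10:43578284-43584265 on the plus strand and *Wdfy4* at chr14:32959547-33185508 on the minus strand.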

How the data were processed

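Live cells of MC38 tumors were sequenced as 1 library per genotype, and groups followed the sample labels. The authors deposited raw UMI counts per gene and droplet, and the submitters' processing notes name Cell Ranger 2.1.1 and mm10. The filter on droplets was set at 500 genes, 1000 UMIs and a mitochondrial share of 15%, and doublets stayed in. Counts were scaled to 10000 per cell, log-transformed and clustered by the Louvain algorithm without the 9 genes, on 2000 variable genes, 30 principal components and 20 neighbours at resolution 1 (0.8 within macrophages). Clusters were named from fixed markers with at least 3 at 5 CPM, and the limits on scores were set after the data were seen. *Ptprc*-low clusters had *Ptprc* under 20 CPM.

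Raw counts were summed by class and library. A ratio against 0 counts was a bound at 3 counts, and genes at 3 or fewer in both libraries had no ratio. No test between genotypes was run. Detection was compared between cells thinned to 1500 UMIs. Genes named beside the 9 were the closest by correlation, the 3 most abundant of each list and the 3 leading genes of a cluster. A gene that this rule names is not reported here. The 9 genes and the lists were chosen with earlier results of these data known. Alternatives were the filters on cells, resolution, principal components, the 9 genes among the clustering genes, doublet removal, cells with UMIs of another class, thinning depth, the minimum of counts, means over cells and TMM scaling. The log2 ratios with their intervals, the Poisson intervals and the thinning were checked on simulated data, and the other steps were not. Promoter sequences came from RefSeq on GRCm38.p6. TMM factors came from edgeR 4.0.16 in R 4.3.3 and doublet calls from Scrublet in scanpy 1.11.5. Clustering used scikit-learn 1.9.0 and igraph 0.11.9, intervals used scipy 1.17.1, and tables and plots used Python 3.11.15 with pandas 2.3.3, numpy 2.4.6 and matplotlib 3.10.9.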

Additional observations from a re-analysis of the deposited data

How the results depend on the processing

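Of 498 values recomputed under the alternatives, 457 stayed within the interval of the reported value, or within 1.5 times it for a count and a fixed distance for a median. The other 41 moved further, and 0 differences whose interval excluded 0 changed sign. Differences whose interval included 0 could change sign, as did the log2 ratio of *Xcr1* in cDC1-like cells, which reached -0.17. Under a lenient filter of 200 genes, 500 UMIs and a mitochondrial share of 25%, the log2 ratio of *Xcr1* in macrophages was 1.03, macrophages held 33.2% (WT) and 24.2% (labelled KO) of the *Xcr1* counts, and 1.74% and 2.95% of thinned macrophages had a *Xcr1* UMI. Under it 41.1% and 64.6% of the *Xcr1* counts lay in unnamed clusters. At a lower and at a higher resolution and with doublets removed, the difference in dendritic cell share was -0.0904, -0.0821 and -0.00709 percentage points. At the higher resolution the log2 ratio of *Xcl1* in lymphocytes was -0.34. With the 9 genes among the clustering genes macrophages held 50.5% and 73.3% of the *Xcr1* counts, and with doublets removed 53.4% and 74.6%. Thinning to 1000 UMIs gave 1.97% and 6.87% of macrophages with a *Xcr1* UMI, and thinning to a higher number gave 5.47% and 14.5%.

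Alternatives chosen after seeing the data left out barcodes found in both libraries, under which no value moved so far, or the macrophage cluster led by *Fcgr4*, under which 7.53% of thinned macrophages of the library labelled KO had a *Xcr1* UMI. With a minimum of 1 count in place of 20, 1305 genes in place of 369 were called in dendritic cells, 1019 in place of 352 in macrophages and 1109 in place of 317 in lymphocytes, and of the 9 genes 2 in place of 0, 3 in place of 2 and 2 in place of 0. No share over all genes was computed at that minimum, so those counts of the 9 are not read as a result about them. Without cells that held UMIs of another class 1 of the 9 was called in dendritic cells, also with no share over all genes beside it. TMM scaling shifted log2 ratios in macrophages by 0.105, and *Xcr1* and *Clec9a* were still the 2 called genes of the 9. The log2 ratio of *Xcr1* in macrophages ran from 1.03 to 1.80 over all alternatives, that of *Clec9a* from 1.80 to 2.13 and that of *Xcl1* in NK-like cells from 0.35 to 0.67. No paired analysis was possible because each genotype has 1 library. Depth limits what can be said of cDC1-like, NK-like and plasmacytoid-like cells, with 94, 126 and 31 cells in all.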
